A study of Mus musculus with 4 samples.

Results

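The 7 genes described here encode the kainate receptor subunits (Grik1, Grik2, Grik3, Grik4 and Grik5) and their auxiliary subunits Neto1 and Neto2. They were taken by symbol from the 28000 genes counted in each library, and their counts were read in somatostatin (SST) neurons of mouse somatosensory cortex. A barcode was taken as an SST cell when it held at least 2000 transcript counts in all and at least 3 of Sst. All 7 genes had at least 1 count in the SST cells of every library.

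Kainate receptors are glutamate-gated cation channels built from subunits named GluK1 to GluK5, which Grik1 to Grik5 encode. GluK1, GluK2 and GluK3 can form channels on their own, whereas GluK4 and GluK5 bind the agonist kainate with higher affinity and need a partner of the first kind. Neto1 and Neto2 are single-pass membrane proteins with CUB domains that bind the receptor and slow its closing. In cortex and hippocampus kainate receptors act both at synapses, where they carry slow currents, and on axon terminals, where they alter transmitter release.

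The 7 genes lie on 7 chromosomes. In the GENCODE annotation of GRCm38, Grik1 lies on the minus strand of chromosome 16 (87895900 to 88290265), Grik2 on the minus strand of chromosome 10 (49094833 to 49788766), Grik3 on the plus strand of chromosome 4 (125490700 to 125714173), Grik4 on the minus strand of chromosome 9 (42518135 to 42944493) and Grik5 on the minus strand of chromosome 7 (25009849 to 25072346). Neto1 lies on the plus strand of chromosome 18 (86394952 to 86506718) and Neto2 on the minus strand of chromosome 8 (85636588 to 85700924). Other annotated genes overlap Grik2 (6), Grik3 (2) and Grik4 (2) on the same strand, among them a ferritin pseudogene, Ftl2-ps, inside Grik3, so that counts of these members could hold reads of the overlapping genes.

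Cells came from SST-IRES-Cre; LSL-tdTomato (Ai9); X94-GFP mice, so that every group carried the Cre driver, the Cre-dependent reporter and the X94 transgene, which labels a subset of non-Martinotti SST cells. The reporter marks cells with a history of Sst expression. In total 4 libraries were made by fluorescence-activated sorting and droplet capture. GFP+/tdTomato+ cells gave 1 library from 6 mice aged 97 days (P97), and tdTomato+ cells, taken whether or not they carried GFP, gave 1 library from the same dissociated tissue. Mice aged 45 days (P45), in separate batches whose number of animals is not given, supplied a further 2 tdTomato+ libraries, replicates 1 and 2. Of 2611 barcodes, 2098 were SST cells, of which 211 were GFP+/tdTomato+ at P97, 573 tdTomato+ at P97, and 668 and 646 tdTomato+ at P45. Library totals ran from 3410049 to 5693022 unique molecular identifiers (UMIs, each standing for 1 captured transcript), and median depth per SST cell was 15222 UMIs among GFP+/tdTomato+ cells and 5157.5 to 7583 in the others. Pairs of libraries shared 5 barcodes in all.

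SST cells were grouped by 7 marker genes, and a cell was positive for a marker when it held at least 1 UMI of it. The markers were Hpse (heparanase, the study's marker for the cluster that holds most X94-GFP cells), Calb2 (calretinin, known from a subset of Martinotti cells), Pvalb (parvalbumin), Crh (corticotropin-releasing hormone), Th (tyrosine hydroxylase), Nos1 (neuronal nitric oxide synthase) and Myh13 (a skeletal-type myosin heavy chain). The groups overlap: of 217 Hpse-positive tdTomato+ SST cells, 115 were also Pvalb-positive, and of 281 Calb2-positive cells 109 were Nos1-positive. Levels are given as CPM, the usual depth-scaled count in which the UMIs of a gene are divided by all UMIs of a group of cells in 1 library, in the order P97, P45 replicate 1 and P45 replicate 2. Because 3′ UMI counts are not scaled to transcript length and depend on how well each 3′ end is captured, no gene is ranked against another by level.

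All 7 markers of the SST list (Sst, Gad1, Gad2, Slc32a1, Lhx6, Sox6 and Satb1) had counts in the SST cells of the tdTomato+ libraries, summing to 9084 to 12197 CPM, while the 4 microglial markers were at 0 in each of these libraries. The 7 excitatory markers summed to 234 to 243 CPM, with Slc17a6 at 0 in each. Oligodendrocyte markers were concentrated in few barcodes, 12 of the 1887 tdTomato+ SST cells holding 95.8% of their UMIs. Another 113 barcodes of the tdTomato+ libraries, with at least 2 UMIs of Slc17a7 and fewer than 3 of Sst, are called excitatory-like. They are set beside the SST cells below as another kind of cell, and their levels do not measure stray counts in SST cells.

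Grik3 and Neto2, whose levels differed together in Hpse-positive and in Th-positive cells, are shown by their RefSeq promoter windows (GRCm38.p6), which run from 250 bases before to 50 after the annotated start. The Grik3 window is chr4:125490446-125490745 on the plus strand and the Neto2 window is chr8:85700875-85701174 on the minus strand. Each is written 5′ to 3′ on the strand of its gene, with GC boxes (GGGCGG, or CCGCCC where the box lies on the other strand) in capitals.
Grik3: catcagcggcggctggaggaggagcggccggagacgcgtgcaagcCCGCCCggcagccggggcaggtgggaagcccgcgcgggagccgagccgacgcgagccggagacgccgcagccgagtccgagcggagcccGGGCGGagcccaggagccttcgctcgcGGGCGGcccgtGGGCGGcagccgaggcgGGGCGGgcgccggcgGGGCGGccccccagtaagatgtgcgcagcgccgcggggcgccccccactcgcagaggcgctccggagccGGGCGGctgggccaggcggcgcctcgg
Neto2: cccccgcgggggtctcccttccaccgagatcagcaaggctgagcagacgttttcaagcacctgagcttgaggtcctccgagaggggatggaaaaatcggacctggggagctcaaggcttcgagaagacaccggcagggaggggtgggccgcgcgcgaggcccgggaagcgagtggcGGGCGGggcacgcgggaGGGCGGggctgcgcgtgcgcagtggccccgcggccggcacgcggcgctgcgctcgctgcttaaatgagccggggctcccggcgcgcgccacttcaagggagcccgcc
The Grik3 window held 6 GC boxes on its own strand and 1 on the other, and the Neto2 window held 2. Of 32851 mouse promoter windows of this length, 35.7% held at least 1 GC box on either strand, as did 4 of the 6 windows of the 5 matched members (Grik2, Grik3, Grik4, Grik5 and Neto2). The Grik2 window held none, and neither did a further Neto2 window at an internal start.

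Over all SST cells of the tdTomato+ libraries, levels in the 3 libraries were close to one another for the abundantly counted members. Grik3, encoding GluK3, stood at 171, 168 and 168 CPM (168.7 ± 1.79, SD, n = 3), and Neto2 at 345, 315 and 361 CPM (340.3 ± 23.4). Grik2, encoding GluK2, stood at 57.3 ± 6.23 CPM, Grik5, encoding GluK5, at 129.9 ± 9.07 CPM, and Neto1 at 173.7 ± 10.8 CPM. Grik1 (GluK1) and Grik4 (GluK4) were sparse, at 13.9 ± 3.92 and 6.89 ± 1.65 CPM, from 180 and 90 UMIs in all.

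In the excitatory-like barcodes the members stood differently. Grik1 had no UMI there, which with exact Poisson limits allows up to 4.08 CPM. Neto2 stood at 64.2 CPM (95% interval 48.7 to 83.0), Neto1 at 43.2 (30.7 to 59.0) and Grik3 at 37.6 (26.1 to 52.6). Each of these intervals lay below the 3 SST levels of that gene. Grik4 went the other way, with 33.2 CPM (22.4 to 47.4) against at most 8.78 CPM in the SST cells of any tdTomato+ library, and Grik5 stood at 183 CPM (156 to 213). These intervals cover counting error only, and the barcodes were too few in each library for a test.

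Shares of cells with a UMI depend on depth, so each cell was also thinned to 2000 UMIs, and all 1887 tdTomato+ SST cells reached that number. After thinning Neto2 was seen in 44.5% of SST cells (± 1.28, SD, n = 3), Grik3 in 28.7% and Neto1 in 28.3%, Grik5 in 25.2% and Grik2 in 12.2%, whereas Grik1 was seen in 2.53% and Grik4 in 1.48%. Without thinning the same shares were 77.1%, 60.9%, 62.3%, 57.2%, 30.4%, 8.26% and 3.99%. In excitatory-like barcodes, whose median depth was 6963 UMIs against 6126 in SST cells, the thinned shares were 11.5% for Neto2 (exact Clopper-Pearson interval 6.27% to 18.9%), 8.85% for Grik3 and 5.31% for Neto1, but 25.7% for Grik5 and 6.19% for Grik4. The Grik5 share in SST cells was thus no higher than in excitatory-like barcodes, and the Grik4 share was lower. At least 1 of the 5 Grik genes was seen after thinning in 49.8% to 54.0% of the SST cells of each of the 4 libraries.

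The next question was which SST groups differ in these genes. For each marker, UMIs were summed over positive and over negative cells of each tdTomato+ library and compared in edgeR by a quasi-likelihood test that blocks on the library, with p-values adjusted over all genes tested. Within a library, positive and negative cells share their mice, and the 3 libraries leave 2 residual degrees of freedom. The Th test used the 2 P45 libraries alone, which leave 1 residual degree of freedom.

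Hpse-positive cells had 2 of the 7 members higher (Grik3 and Neto2) and 2 lower (Grik1 and Grik4), where 5.71% of all 10684 genes tested were higher and 5.86% lower. Calb2-positive cells had none of the 7 called by edgeR or by DESeq2, while 2, Grik3 and Neto1, had an unadjusted p under 0.05 in edgeR (2.79% of all genes higher, 2.55% lower). Pvalb-positive cells had none higher and 1 lower, Grik4 (7.29% and 7.56% of all genes). Crh-positive cells had 2 higher, Neto2 and Grik1, and 1 lower, Grik4 (2.69% and 2.43%). Th-positive cells, found in number only at P45, had none higher and 2 lower, Neto2 and Grik3 (1.59% and 1.85%). Nos1-positive cells had 1 higher, Grik4, and 1 lower, Neto2 (2.88% and 2.17%), and Myh13-positive cells had none higher and 2 lower, Grik2 and Neto1 (2.43% and 3.31%). When Hpse-positive cells without Calb2 were set against Calb2-positive cells without Hpse, 1 of the 5 members that could be tested was higher, Neto2, and none lower (4.30% and 4.53% of 7705 genes). The median log2 difference of the 7 members lay between -0.68 in Myh13-positive and 0.28 in Crh-positive cells, beside a median over all genes of -0.12 for Th and of -0.0063 to -0.0012 for the others.

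**Figure D1:**
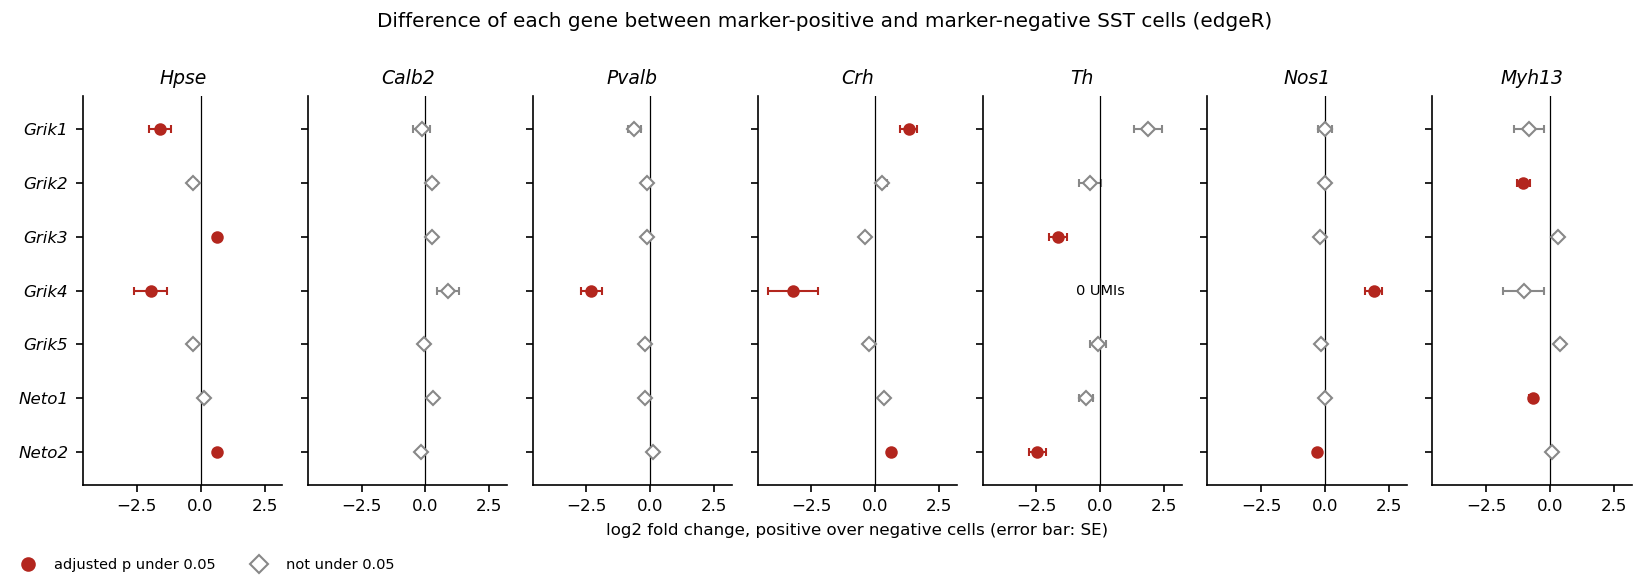
Log2 difference (x axis) of each of the 7 genes (y axis) between marker-positive and marker-negative SST cells of the tdTomato+ libraries, with the standard error as a bar and filled red circles where the adjusted p was under 0.05. Neto2 lies above 0 in Hpse-positive and Crh-positive cells and below 0 in Th-positive cells, and Grik4 is higher in Nos1-positive cells and lower in Pvalb-positive cells. Grik4 in Th-positive cells had 0 UMIs and has no point.

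Grik3 encodes the channel-forming subunit GluK3, which has a low affinity for glutamate. In Hpse-positive cells it stood at 232, 250 and 235 CPM, against 156, 154 and 157 CPM in Hpse-negative cells. The positive cells were higher in 3 of 3 libraries and the groups did not overlap, with a log2 difference of 0.65 (SE 0.09, adjusted p = 2.5e-07). After thinning Grik3 was seen in 39.6% of Hpse-positive and 27.3% of Hpse-negative cells, so the difference was present at equal depth although Hpse-positive cells were deeper (medians of 8229 to 11818 against 4902 to 7192 UMIs).

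Th-positive cells were few, 23 in P45 replicate 1 and 13 in replicate 2, with none in either P97 library. Grik3 stood at 58.0 and 51.4 CPM there and at 171 and 171 CPM in the Th-negative cells of the same 2 libraries. Both positive values lay below both negative values (log2 difference -1.65, SE 0.34, adjusted p = 0.012), and none of the 36 cells showed Grik3 after thinning (upper limit 9.74%), against 29.3% of Th-negative cells of all tdTomato+ libraries. With DESeq2 in place of edgeR the Grik3 call was lost (adjusted p = 0.19).

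In Crh-positive cells Grik3 stood at 145, 143 and 115 CPM, each below the 173, 170 and 177 CPM of the Crh-negative cells of its library, without passing the threshold (log2 difference -0.39, adjusted p = 0.057). The call was gained without P45 replicate 1 (-0.44, adjusted p = 0.037) and when Crh-positive cells were required to hold at least 2 UMIs of Crh (-0.94, adjusted p = 5.3e-04). It was also gained with no filter on low counts (adjusted p = 0.024), with positive calls after thinning (0.030) and without cells with oligodendrocyte markers (0.045), in all 5 of 12 alternatives. In Calb2-positive cells the values were 214, 203 and 154 CPM against 166, 157 and 170, higher in 2 of 3 libraries (0.25, adjusted p = 0.24), and without P45 replicate 2 the difference was 0.40 (adjusted p = 0.044). Myh13-positive cells stood at 173, 191 and 259 CPM against 171, 166 and 161 (0.30, adjusted p = 0.31), and the difference passed with positive calls after thinning (0.55, adjusted p = 0.026). In Pvalb-positive and Nos1-positive cells Grik3 differed by -0.12 and -0.21 on the log2 scale, neither passing the test, and the former passed with positive calls after thinning (-0.29, adjusted p = 0.026).

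Grik1 encodes GluK1, the subunit best known from interneurons of hippocampus and amygdala. In Crh-positive cells it stood at 32.8, 34.2 and 24.0 CPM (40 UMIs), against 7.11, 14.5 and 14.9 CPM in Crh-negative cells. The groups did not overlap (log2 difference 1.30, SE 0.33, adjusted p = 0.013). The call was lost without the P97 library (0.91, adjusted p = 0.33), and also with DESeq2, without the library block and in cells positive for Crh alone. Th-positive cells had the highest Grik1 levels of any marker group of the tdTomato+ libraries, 49.7 and 59.9 CPM against 15.0 and 15.0 CPM, from 13 UMIs, and the difference of 1.86 (SE 0.56) did not pass (adjusted p = 0.092).

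Hpse-positive cells of the tdTomato+ libraries had little Grik1, at 5.38, 1.77 and 6.48 CPM from 10 UMIs, against 10.3, 18.4 and 17.8 CPM. In the GFP+/tdTomato+ library, left out of the test, Grik1 stood at 15.0 CPM (31 UMIs) in Hpse-positive cells. That lies among the Hpse-negative levels of the tdTomato+ libraries, beside 23.1 CPM in its own Hpse-negative cells. The rest of this paragraph is on the tdTomato+ libraries. All 3 positive values lay below the negative ones (log2 difference -1.59, SE 0.43, adjusted p = 0.0068), and the call was lost without P45 replicate 1 (-1.15, adjusted p = 0.16), with DESeq2 and without the block. In Pvalb-positive cells Grik1 was lower in 3 of 3 libraries (6.41, 14.4 and 12.1 against 13.2, 16.8 and 18.6 CPM) with overlapping groups and no call (-0.62, adjusted p = 0.080).

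Grik2 encodes GluK2, a main channel-forming subunit of principal neurons. It was called only in Myh13-positive cells, where it stood at 27.1, 28.3 and 32 CPM against 51.6, 63.2 and 63.2 CPM in Myh13-negative cells. The groups were well apart (log2 difference -1.04, SE 0.25, adjusted p = 0.0079), but the positive values rest on 25 UMIs. Leaving out any 1 of the 3 libraries raised the adjusted p above the threshold, to 0.088 without P97, 0.066 without P45 replicate 1 and 0.11 without replicate 2, with differences of -1.08, -0.98 and -1.07. It was also lost with DESeq2 (adjusted p = 0.27), at 2 UMIs of Myh13 (0.056), in cells positive for Myh13 alone (0.098) and in cells of 5000 to 15000 UMIs (0.20), in all 7 of 12 alternatives. In the other marker groups Grik2 differed by -0.41 to 0.28 on the log2 scale and passed in none.

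Grik4 encodes GluK4, a high-affinity subunit known from hippocampal mossy fibre synapses. Nos1-positive cells stood at 14.1, 17.4 and 14.9 CPM (47 UMIs), against 4.24, 4.77 and 3.70 CPM in Nos1-negative cells (43 UMIs from a larger number of cells). The positive cells were higher in 3 of 3 libraries and the groups did not overlap (log2 difference 1.90, SE 0.34, adjusted p = 2.7e-04). With DESeq2 the adjusted p was 0.056. After thinning Grik4 was seen in 3.32% of Nos1-positive cells (1.73% to 5.73%) and 1.05% of Nos1-negative cells (0.60% to 1.70%).

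Both Grik4 and Nos1 were also counted in excitatory-like barcodes, Nos1 in 5.31% of them after thinning against 9.06% of SST cells. The 7 excitatory markers summed to 169 to 201 CPM in Nos1-positive cells and to 249 to 256 CPM in Nos1-negative cells, with Slc17a6 at 0 in both groups of every library. Without the 7, 12 and 7 SST cells holding Slc17a7 the Grik4 difference was 1.89 (adjusted p = 2.6e-04). With so few cells removed this was a weak check. The part of excitatory RNA in the result was otherwise not tested.

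Pvalb-positive cells had less Grik4, at 2.85, 1.52 and 1.27 CPM (12 UMIs), against 10.4, 12.4 and 8.38 CPM (78 UMIs). The groups did not overlap (log2 difference -2.31, SE 0.40, adjusted p = 1.2e-05), and the thinned shares were 0.48% and 1.98%. The 7 excitatory markers summed to 217 to 227 CPM in Pvalb-positive and 244 to 257 CPM in Pvalb-negative cells. The 4 oligodendrocyte markers summed to 1024 to 1846 and 386 to 776 CPM. Grik4 was called in all 10 alternatives that gave a value, and the part of these markers in the result was otherwise not tested. In Hpse-positive cells Grik4 was at 1.08, 1.77 and 3.24 CPM (4 UMIs) against 7.26, 9.93 and 6.22 CPM (log2 difference -1.94, SE 0.64, adjusted p = 0.037), and the call was lost without the P97 library (adjusted p = 0.31) or P45 replicate 1 (adjusted p = 0.24), with differences of -1.60 and -1.74. It was also lost with DESeq2 (adjusted p = 0.54), without the block (0.093), with positive calls after thinning (0.26) and without cells holding Slc17a7 (0.058), so that 4 of 10 alternatives kept it.

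In Crh-positive cells a single Grik4 UMI was counted, in P45 replicate 1, against 89 in Crh-negative cells. The pooled ratio was 0.0970 with an exact counting interval of 0.00243 to 0.554. The edgeR adjusted p was 0.048 and rose to 0.31 without the P97 library and 0.29 without P45 replicate 2, where the fitted differences were -2.78 and -2.52. The call was also lost with DESeq2 (adjusted p = 0.59), without the block (0.14), at 2 UMIs of Crh (0.29), with positive calls after thinning (0.31) and without cells holding Slc17a7 (0.053), in all 7 of 10 alternatives. Th-positive cells had no Grik4 UMI, which allows up to 12.6 CPM (3 counts over both libraries together), more than the level of Th-negative cells, so no difference was detectable at this depth. In Calb2-positive cells the values were 17.5, 7.89 and 10.1 CPM against 4.76, 9.03 and 4.97 (0.88, adjusted p = 0.32), with P45 replicate 1 going the other way.

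Grik5 encodes GluK5, the other high-affinity subunit, which pairs widely with GluK2. None of its differences passed the test in any marker group. The largest were 0.38 in Myh13-positive cells (146, 173 and 185 against 134, 115 and 132 CPM, without overlap, adjusted p = 0.18) and -0.31 in Hpse-positive cells (108, 83.4 and 128 against 141, 125 and 137 CPM, adjusted p = 0.093). In Hpse-positive cells the value passed when P45 replicate 2 was left out (-0.43, adjusted p = 0.034) and when at least 2 UMIs of Hpse were required (-0.49, adjusted p = 0.016).

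**Figure D2:**
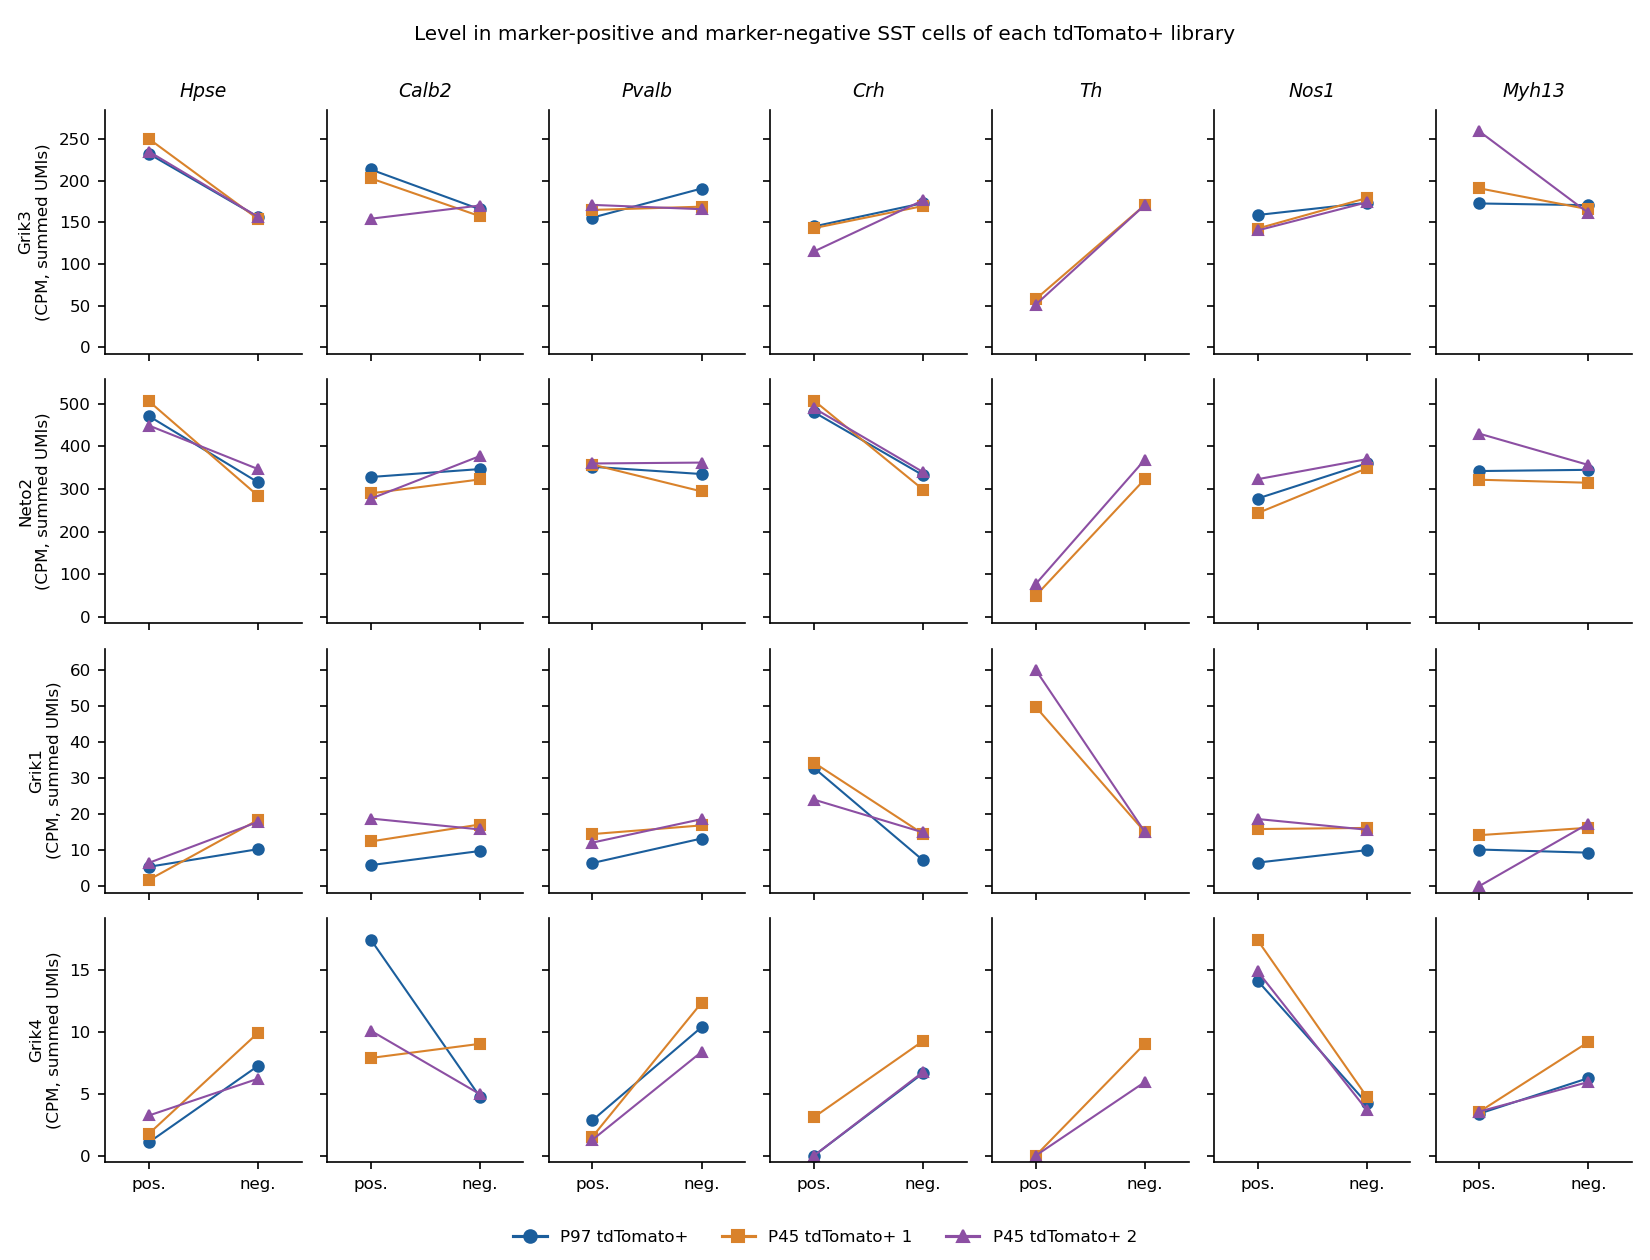
Level in CPM (y axis, linear) of Grik3, Neto2, Grik1 and Grik4 in marker-positive and marker-negative SST cells, with 1 line for each tdTomato+ library and 1 column for each marker. The lines of all libraries slope the same way for Grik3 and Neto2 under Hpse and Th, for Neto2 and Grik1 under Crh, and for Grik4 under Pvalb and Nos1.

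Neto2 encodes an auxiliary subunit. It was called in 4 of the 7 marker comparisons, as was Grik4. Hpse-positive cells stood at 471, 506 and 449 CPM against 315, 284 and 347 CPM in Hpse-negative cells. The positive cells were higher in 3 of 3 libraries without overlap (log2 difference 0.63, SE 0.09, adjusted p = 6.9e-07), with thinned shares of 56.7% and 42.8%. Between cells positive for Hpse and no other marker and cells with none of the markers the difference was 0.38 and did not pass (adjusted p = 0.086).

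Crh-positive cells stood at 480, 507 and 489 CPM against 332, 298 and 339 CPM. Again all libraries agreed in direction and the groups did not overlap (log2 difference 0.60, SE 0.09, adjusted p = 2.5e-05). The thinned shares were 58.5% and 43.0%. Excitatory markers summed to 274 to 301 CPM in Crh-positive cells and 231 to 235 CPM in Crh-negative cells. Without the 7, 12 and 7 SST cells holding Slc17a7 the Neto2 difference was 0.59 (adjusted p = 2.0e-05). Removing so few cells was a weak check, and the part of excitatory RNA in the result was otherwise not tested.

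In Th-positive cells Neto2 stood at 49.7 and 77.1 CPM (15 UMIs) against 323 and 369 CPM in Th-negative cells. Both positive values lay far below both negative values (log2 difference -2.46, SE 0.32, adjusted p = 2.6e-04), and Neto2 was seen after thinning in 3 of the 36 cells (8.33%, 1.75% to 22.5%) against 45.1%. The SST list was higher in these cells, at 21425 and 15766 CPM against 8899 to 11909 CPM in Th-negative cells of all tdTomato+ libraries, P97 included. The 6 markers of other interneurons were at 0 in P45 replicate 2 while Vip alone gave 116 CPM in replicate 1. The 4 oligodendrocyte markers summed to 41.4 and 8.56 CPM in Th-positive cells and to 881 to 894 CPM in Th-negative cells of all tdTomato+ libraries. Neto2 was called in all 6 alternatives (log2 differences -2.51 to -2.32), which included removal of cells holding Slc17a7 and of cells with oligodendrocyte markers. In the P45 libraries these removals took only 12 and 7 cells for Slc17a7, and 3 and 4 for oligodendrocyte markers. They were thus weak checks. The part of the listed markers in the result was otherwise not tested.

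Nos1-positive cells had less Neto2, at 277, 243 and 323 CPM against 360, 348 and 370 CPM (log2 difference -0.32, SE 0.08, adjusted p = 0.013). Each library was lower and the groups did not overlap. The call was lost without the P97 library (-0.30, adjusted p = 0.14) or without P45 replicate 1 (-0.25, adjusted p = 0.098), and also with DESeq2, without the block, in cells positive for Nos1 alone and in cells of 5000 to 15000 UMIs, an alternative chosen after seeing the data.

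Neto1, encoding the other auxiliary subunit, which also binds NMDA receptors, was called in Myh13-positive cells. It stood there at 115, 103 and 121 CPM against 166, 179 and 189 CPM (log2 difference -0.68, SE 0.16, adjusted p = 0.0045). The groups did not overlap, and the thinned shares were 15.5% and 29.5%. The call was lost without the P97 library (-0.73, adjusted p = 0.062), without P45 replicate 2 (-0.69, adjusted p = 0.094), with DESeq2 and in cells of 5000 to 15000 UMIs. In P45 replicate 1 the Myh13-positive cells also carried 6742 CPM of oligodendrocyte markers against 50.8 CPM at P97 and 28.4 CPM in replicate 2, with Pdgfra at 0 in all 3. Without cells holding at least 20 UMIs of these markers, an alternative added after seeing the data, Neto1 differed by -0.65 (adjusted p = 0.0014) and Grik2 by -1.01 (adjusted p = 0.0047).

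In Calb2-positive cells Neto1 stood at 206, 196 and 196 CPM against 158, 167 and 182 CPM. It was higher in 3 of 3 libraries without overlap and did not pass (0.28, SE 0.10, adjusted p = 0.11). In Crh-positive cells the values were 192, 249 and 210 against 160, 167 and 180 CPM (0.33, adjusted p = 0.076). In Pvalb-positive cells Neto1 stood at 150, 166 and 169 CPM against 180, 178 and 193 CPM, without overlap and without passing (-0.20, SE 0.08, adjusted p = 0.063). It passed there at 2 UMIs of Pvalb (-0.30, adjusted p = 0.020) and without cells holding Slc17a7 (-0.22, adjusted p = 0.045).

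Hpse-positive cells were also set directly against Calb2-positive cells, and the auxiliary subunit Neto2 differed. It stood at 477, 516 and 466 CPM in Hpse-positive cells without Calb2 against 325, 274 and 269 CPM in Calb2-positive cells without Hpse (log2 difference 0.74, SE 0.12, adjusted p = 1.5e-04). Grik3 stood at 229, 254 and 236 against 205, 200 and 144 CPM, without overlap and without passing (0.38, SE 0.13, adjusted p = 0.076). Grik2 was lower by 0.54 on the log2 scale (39.7, 31.2 and 58.0 against 64.2, 75.9 and 45.9 CPM, adjusted p = 0.21), with P45 replicate 2 going the other way, and without that library the difference was -0.96 (adjusted p = 0.0071). Grik1 (10 against 27 UMIs) and Grik4 (2 against 21 UMIs) fell under the filter on low counts and were not tested. Their pooled ratios were 0.367 (0.159 to 0.783) and 0.0945 (0.0107 to 0.386), with intervals for counting error only.

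Because the marker groups overlap, levels were also read in cells positive for exactly 1 marker and in cells positive for none. Here groups with at least 10 cells in a library are described, without a test, and Th is left out of the order because it had 1 such library, of 15 cells. Grik4 was highest in cells positive for Nos1 alone, at 33.8 ± 3.86 CPM (SD, n = 3), above the 8.74 ± 2.95 CPM of cells with no marker, and these were the only neighbours in its order whose ranges did not overlap. Neto2 was highest in cells positive for Crh alone, at 571.5 ± 29.1 CPM, followed without overlap by Hpse alone at 411 ± 39.8 CPM, and from there to the lowest group, Nos1 alone at 237 ± 98.2 CPM, each neighbour overlapped the next. Grik3 was highest in cells positive for Hpse alone, at 261 ± 27.3 CPM. The ranges of Hpse, Myh13 and Calb2 overlapped in turn, and Calb2 alone, at 209 ± 30.6 CPM, did not overlap cells with no marker at 171 ± 10.1 CPM. Myh13 alone, from 166 CPM, did overlap cells with no marker.

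Neto1 was highest in cells positive for Calb2 alone, at 255 ± 13.9 CPM, then Crh and Hpse, whose ranges overlapped and lay above those of cells with no marker (183 ± 8.67 CPM). It was lowest for Myh13 alone, at 106 ± 21.5 CPM, without overlap with Pvalb at 147 ± 5.34 CPM. The Myh13 range, up to 128 CPM, did overlap that of Nos1 alone, from 113 CPM. Grik5 led in Myh13 alone, at 180 ± 15.1 CPM, above cells with no marker at 154 ± 9.39 CPM and then Pvalb at 126 ± 18.2 CPM, without overlap among these. Nos1 and Crh alone, lower in the order, overlapped cells with no marker. Grik2 ended with Pvalb at 51.6 ± 3.96, Nos1 at 46.7 ± 0.86 and Myh13 at 35.2 ± 8.08 CPM, without overlap among these, while its upper groups, led by Crh at 83.0 ± 43.7 CPM, overlapped. The low groups were not apart from the rest. The ranges of Crh (from 39.4 CPM), Calb2 (from 31.6) and Hpse (from 40.9) overlapped each of them. For Grik1, led by Crh alone at 35.3 ± 10.6 CPM and ending with Myh13 alone at 3.57 ± 6.18 CPM, each of the 6 neighbouring pairs overlapped.

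**Figure D3:**
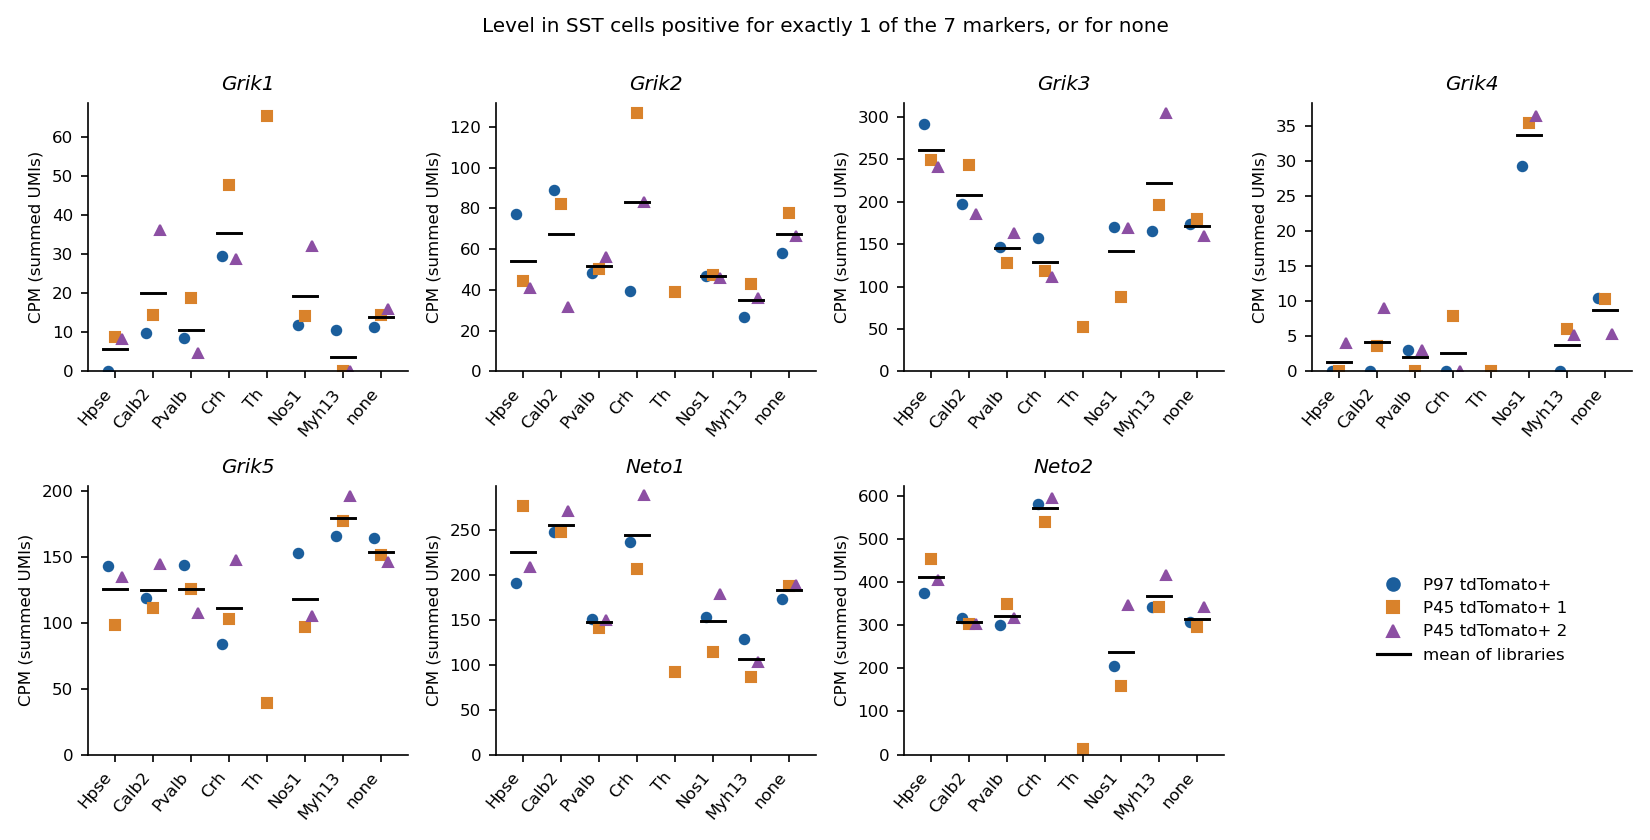
Level in CPM (y axes from 0) of each of the 7 genes in cells positive for exactly 1 marker and in cells positive for none, with 1 point per tdTomato+ library and a bar for the mean. Grik4 stands apart in Nos1 cells and Neto2 in Crh cells. The single Th point, from 15 cells, lies within the range of Myh13 cells for Neto1 (91.5 CPM) and below all other groups for Neto2 (13.1 CPM).

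Likeness to other genes was read over the 22 sums of these groups, as the Pearson correlation of log2(CPM + 1) centred within each library, as a description only. The sums share libraries, and within a library they differ in depth. Among them is that of Th alone in P45 replicate 1, of 15 cells. It had Neto2 at 13.1 CPM (1 UMI), Grik3 at 52.3 CPM (4 UMIs) and Grik5 at 39.2 CPM (3 UMIs). For each of these genes it was the lowest sum, and its weight in the coefficients was not tested. Grik3 was most like Elfn1 (r = 0.89), which encodes a synaptic adhesion protein of SST cells, Unc13c (0.89) and Mpped1 (0.85). Neto2 was most like Cntnap5a (0.96), Sec23ip (0.95) and Mgll (0.95), the last encoding the enzyme that degrades the endocannabinoid 2-AG. Neto1 was most like Barx2 (0.88) and Ensa (0.83), Grik5 most like Actr3 (0.88), Ifi27 (0.87) and Chrd (0.86), and Grik2 most like Uba3 (0.78), Ube2h (0.74) and Pikfyve (0.71). Among the members themselves the coefficients ran from -0.05 (Grik5 with Neto1) to 0.62 (Grik5 with Neto2), with 0.61 for Grik3 with Neto2. Grik1 and Grik4 were below the minimum of 20 CPM.

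An interaction of the difference with age was fitted for each marker but Th and for Hpse against Calb2. An interaction with sort was fitted for Hpse, Pvalb, Crh and Nos1 only. Grik4 gave no value in the sort terms, and Grik1 and Grik4 gave none for Hpse against Calb2. Each age term rests on 1 library at P97 and each sort term on 1 GFP+/tdTomato+ library, which shares its mice with the P97 tdTomato+ library, so these fits say little about whether the differences depend on either. None of the 71 terms passed after adjustment (edgeR, 7 at an unadjusted p under 0.05), the lowest adjusted p being 0.25 for Grik3 in Hpse-positive cells between the GFP+/tdTomato+ sort and the tdTomato+ sorts. In the GFP+/tdTomato+ library Grik3 stood at 191 CPM in Hpse-positive and 176 CPM in Hpse-negative cells, a narrower gap than in the other libraries, with an interaction of -0.53 (SE 0.19). The gap of Neto2 was narrower too, at 420 against 386 CPM, with an interaction of -0.50 (SE 0.19). By Nos1, Neto2 went the other way there, at 428 CPM in positive and 405 CPM in negative cells. By Crh it kept its direction, at 581 against 396 CPM.

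Between ages no member passed the edgeR test, nor DESeq2, over all tdTomato+ SST cells, where 1.41% of 12108 genes were higher at P97 and 0.372% lower. Grik1 stood at 9.34 CPM at P97 against 16.1 and 16.2 CPM at P45, a log2 difference of -0.80 (SE 0.26, the only member with an unadjusted p under 0.05, adjusted p = 0.21), and Grik2 at 50.2 against 60.7 and 61.2 CPM (-0.29, adjusted p = 0.42). The other 5 members differed by -0.26 to 0.06 on the log2 scale. With 1 library at P97, the age of the mice and their batch cannot be told apart, and 1 residual degree of freedom was left.

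The GFP+/tdTomato+ sort, in which the X94 transgene was visible, was set against the tdTomato+ sort of the same mice, with 1 library each and so without a test. Hpse was 3.50 times as high in the former (134 against 38.4 CPM) and GFP transcripts were 1.5 times as high (513 against 343 CPM), the tdTomato+ library also holding GFP. Grik4 was nearly absent from the GFP+/tdTomato+ cells, with 1 UMI against 30, a ratio of 0.05 (exact interval 0.00122 to 0.301). Grik2 was lower, at 28.3 against 50.2 CPM (ratio 0.564, 0.440 to 0.719), as were Neto1, at 116 against 163 CPM (0.710, 0.627 to 0.803), and Grik5, at 105 against 134 CPM (0.781, 0.684 to 0.891). Grik1 was higher, at 18 against 9.34 CPM (1.92, 1.29 to 2.89), and Neto2 slightly so, at 408 against 345 CPM (1.18, 1.1 to 1.27). Grik3 differed by less than counting error, at 186 against 171 CPM (1.09, 0.978 to 1.21).

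Hpse-positive cells made up 120 of 211 GFP+/tdTomato+ SST cells and 79 of 573 tdTomato+ SST cells. Within Hpse-positive cells Grik1 remained higher in the GFP+/tdTomato+ library (31 against 5 UMIs, ratio 2.78, 1.07 to 9.17), and Grik2 (0.628, 0.411 to 0.968) and Neto1 (0.781, 0.635 to 0.964) remained lower. Grik3 was lower there (0.823, 0.695 to 0.976), Grik5 (0.974, 0.765 to 1.25) and Neto2 (0.893, 0.795 to 1.0) differed by less than counting error, and Grik4 had 0 UMIs against 1. The intervals cover counting error only and not the variation between libraries.

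**Figure D4:**
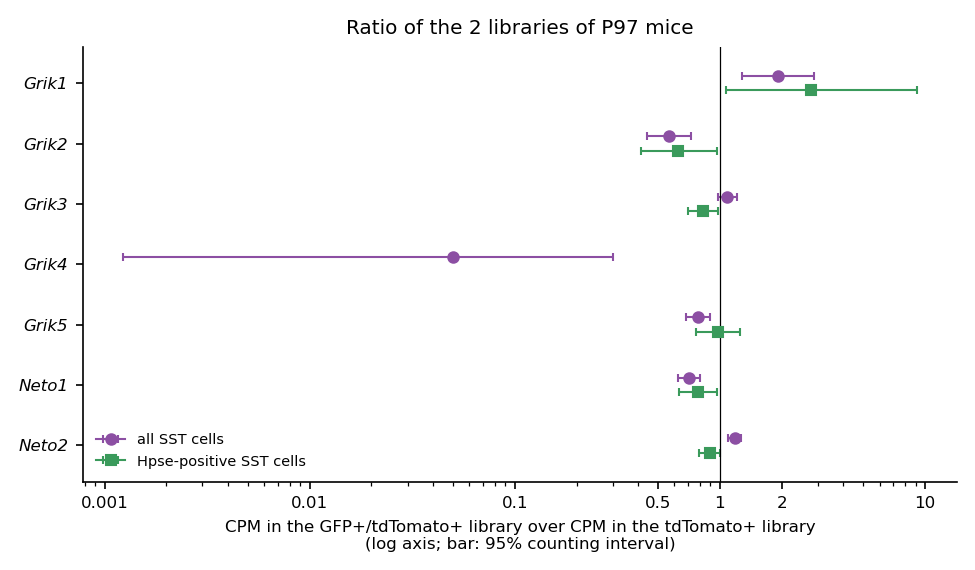
Ratio of the level in SST cells of the GFP+/tdTomato+ library to that of the P97 tdTomato+ library (log axis) for each of the 7 genes, over all SST cells and over Hpse-positive cells, with exact counting intervals as bars. Grik4 lies far below 1 and Grik1 above 1, while Grik3 lies near 1 over all cells.

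The other ionotropic glutamate receptor genes (12, of which 10 were tested) are given beside these differences. So are 20 genes of proteins known to bind, move or modify kainate receptors, of which 17 to 20 were tested. For the marker groups, brackets give the shares of all tested genes called higher and lower in the same comparison. No test of a list against these shares was run. In Hpse-positive cells 4 of the receptor genes were higher and 1 lower, and 2 of the 18 partner genes tested were higher and 1 lower (5.71% and 5.86%). Among them were Prkca (protein kinase C alpha, -0.99) and Grin2a (an NMDA receptor subunit, 0.72). In Crh-positive cells 1 receptor gene was higher and 2 lower, and 3 partner genes were higher and 1 lower (2.69% and 2.43%). The leading genes there were C1ql3 (3.86) and C1ql2 (2.57), whose secreted products bind kainate receptors at hippocampal mossy fibres, and Cdh2 (N-cadherin, 1.68). C1ql3 stood at 37.5, 12.4 and 12.8 CPM in Crh-positive cells (16, 4 and 8 UMIs) against 0.67, 1.64 and 1.90 CPM in Crh-negative cells.

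In Th-positive cells none of these genes was higher, and 3 receptor genes and 3 partner genes were lower (1.59% and 1.85%). They were led by Gria3 (an AMPA receptor subunit, -3.55), Grin2a (-3.29) and Elfn1 (-3.21). Gria3 stood at 24.9 and 59.9 CPM against 496 and 486 CPM in Th-negative cells. In Myh13-positive cells 1 receptor gene was higher and 4 lower, while 3 partner genes were higher and none lower (2.43% and 3.31%). The receptor genes were led by Gria4 (-1.20) and Gria1 (-1.05), both AMPA receptor subunits, and Grin3a (0.56).

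In Pvalb-positive cells 4 receptor genes were higher and 1 lower and 1 partner gene was higher and 3 lower (7.29% and 7.56%). They were led by C1ql2 (-2.76, from 4 UMIs in the positive cells), Gria4 (0.63) and Gria3 (0.55). In Nos1-positive cells 2 receptor genes were higher and 1 lower and 4 partner genes were lower (2.88% and 2.17%), led by Camk2a (-0.64), Cdh2 (-0.58) and Gria1 (0.49). In Calb2-positive cells 1 receptor gene was higher and 1 lower and 2 partner genes were lower (2.79% and 2.55%). They were led by Cdh2 (-0.56), Gria1 (0.55) and Ppp3ca (a calcineurin subunit, -0.36). Between Hpse-positive and Calb2-positive cells 2 receptor genes were higher and 1 lower and 1 partner gene was higher (4.30% and 4.53%). They were led by Grin2a (0.58), Gria1 (-0.49) and Grin1 (0.43). Between ages Grid1 alone was called (1.03, adjusted p = 0.013).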

How the data were processed

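The authors made Chromium 3′ libraries and ran Cell Ranger 2.0.0 against GRCm38. Their deposited tables hold whole UMI counts per barcode and gene, neither normalized nor filtered by gene. The annotation was not given in the sources used here, and positions come from GENCODE. Samples were grouped by the labels of sort, age and replicate. Barcodes with at least 2000 UMIs and 3 Sst UMIs were kept. No doublet caller was run.

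UMIs were summed per library and group of at least 10 cells. edgeR 4.0.16 in R 4.3.3 (quasi-likelihood test after TMM scaling and filterByExpr, Benjamini-Hochberg adjustment, threshold 0.05) was fitted to the sums of the tdTomato+ libraries, with each library a block because its groups share mice, and the standard error is the size of the log2 difference over the square root of F. With so few libraries, p-values rest heavily on the spread edgeR borrows from other genes. They measure the spread between these libraries and do not allow for cells being grouped by a transcript of the same counts. Single-library ratios and shares carry exact 95% intervals for counting error only, and 0 UMIs was taken to allow 3 counts.

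The fit was tested on simulated data. Alternatives were DESeq2 1.42.0, no filter on low counts, no library block, each library left out, a positive call at 2 UMIs, positive calls after thinning to 2000 UMIs, cells without Slc17a7 and cells positive for 1 marker alone. A depth band and the removal of cells with oligodendrocyte markers were added after seeing the data. All 7 members are named in each comparison, with the 3 genes most like each in level and up to 3 called genes of the context lists. Some genes that this rule names are not reported here. Members and lists were chosen with earlier results of these data known.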

Additional observations from a re-analysis of the deposited data

How the results depend on the processing

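Of 61 member results tested, 15 passed the threshold. Of all genes, 1.59% (Th) to 7.29% (Pvalb) were called higher in the marker comparisons and 1.85% (Th) to 7.56% (Pvalb) lower. The marker groups share cells, so the 61 results are not independent. In every alternative that gave a value, 5 of the 15 passed (Grik3 in Hpse-positive, Grik4 in Pvalb-positive, Neto2 in Crh-positive and in Th-positive cells, and Neto2 between Hpse-positive and Calb2-positive cells). The other 10 lost the call in some alternative, no called value changed sign, and 7 of the 46 not called passed in some alternative. The thin counts of Grik1 and Grik4 limit their values, and the cause of the changed calls was not tested. The count of all genes called fell with DESeq2 from 1236 to 434 (Hpse), 564 to 203 (Calb2), 1613 to 412 (Pvalb), 551 to 227 (Crh), 366 to 143 (Th), 533 to 169 (Nos1), 605 to 308 (Myh13), 680 to 194 (Hpse against Calb2) and 216 to 88 (age). Without the library block it was 434, 128, 276, 183, 101, 257 and 409 for Hpse, Calb2, Pvalb, Crh, Nos1, Myh13 and Hpse against Calb2. With 1 replicate left out it ran from 818 to 1256 (Hpse), 309 to 560 (Calb2), 234 to 575 (Crh) and 260 to 588 (Myh13). Positive calls after thinning gave 760 (Hpse), 1020 (Pvalb) and 365 (Hpse against Calb2). Cells positive for 1 marker alone gave 380 (Hpse), 230 (Calb2), 1069 (Pvalb), 365 (Crh), 335 (Nos1) and 211 (Myh13). At least 2 UMIs gave 857 for Calb2, the depth band 894 (Pvalb), 303 (Nos1) and 472 (age), no filter 730 for age, and removal of Slc17a7 cells 211 for Th. No filter moved the median of all genes to -0.12 (Hpse), -0.12 (Crh), -0.49 (Th) and -0.19 (Myh13) on the log2 scale. Ratios between the sorts in Hpse-positive cells alone (Grik3 0.823, Grik5 0.974, Neto2 0.893) and unthinned shares of SST cells (Grik1 8.26%, Grik2 30.4%, Grik3 60.9%, Grik4 3.99%, Grik5 57.2%, Neto1 62.3%, Neto2 77.1%) moved by more than their error. For Th, leaving out a replicate, the call at 2 UMIs, the thinned call and Th alone left too few cells or libraries and gave no value.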
